A study of Homo sapiens with 12 samples.

Results

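The 10 genes described here are classic markers and regulators of the epithelial-mesenchymal transition: CDH1, OVOL1, CDH2, VIM, FN1, ZEB1, ZEB2, SNAI1, SNAI2 and TWIST1. They were taken by symbol from the 60314 named entries of each expression table, and all 10 had a row in both tables. The choice was made with earlier results of these data known. RNA sequencing covered 2 human prostate cancer lines, C4-2B and 22RV1, of wild-type genotype per the labels. C4-2B is a castration-resistant line of LNCaP descent, and 22RV1 comes from a human prostate tumour xenograft that relapsed after castration. Cells of both lines were kept in RPMI-1640 without glutamine plus 5% serum, and every group received 2 mM L-glutamine for 48 h. The control groups received nothing else per the labels, and the treated groups also received 50 nM of an oligonucleotide called the 56-mer, which the series title describes as an aptamer. Each of the 4 groups had 3 libraries, described by the submitters as biological triplicates. Each line stands for itself, since all its libraries come from 1 established culture line.

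In the epithelial-mesenchymal transition, polarised cells that adhere to their neighbours become motile cells with a matrix-rich surrounding. E-cadherin, the product of CDH1, is replaced by N-cadherin, the product of CDH2, while the intermediate filament vimentin and the matrix protein fibronectin become abundant. The repressors ZEB1, ZEB2, SNAI1, SNAI2 and TWIST1 drive the change by silencing CDH1 and other junction genes. OVOL1 acts against them and keeps cells epithelial. In prostate cancer the programme is studied for its link with invasion and with resistance to hormone therapy.

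ZEB1 and ZEB2 are the textbook targets of the miR-200 family, small RNAs abundant in epithelial cells. In these data ZEB2 was at 0 in all libraries and ZEB1 was low, and a part of the family in those levels was not tested. The 5 mature family members are shown because their seeds, bases 2 to 8, define the sites counted below. The seeds are in capitals, and all sequences are RefSeq entries on GRCh38.p14, read 5′ to 3′.
hsa-miR-200b-3p: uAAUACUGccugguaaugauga
hsa-miR-200c-3p: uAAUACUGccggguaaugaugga
hsa-miR-429: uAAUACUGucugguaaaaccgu
hsa-miR-200a-3p: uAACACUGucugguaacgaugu
hsa-miR-141-3p: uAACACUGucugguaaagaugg
The first 3 share 1 seed and the last 2 share another, which differs in a single base. The genes of miR-200b, miR-200a and miR-429 lie together on the plus strand of chromosome 1, at chr1:1167160-1169076, and those of miR-200c and miR-141 on the plus strand of chromosome 12, at chr12:6963742-6964176.

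The longest coding transcript of each gene in GENCODE release 29 was searched for matches to either seed in its 3′ untranslated region. ZEB1 held 9 matches in 2549 bases and ZEB2 held 9 in 5370 bases. Among genes with an untranslated region of similar length, 0.0403% of 2481 had as many as ZEB1 and 0.173% of 1159 had as many as ZEB2, the member itself included. FN1 had 2 matches, SNAI2 had 1, and CDH1, CDH2, VIM, SNAI1, TWIST1 and OVOL1 had none. Over all 18866 genes searched, 28.3% had at least 1 match. The first match to each seed in the ZEB genes is shown with its surroundings, 30 bases each, with the match in capitals and the position of its first base in the untranslated region in the text that follows.
ZEB1, first seed: ggcattgttttatcttatCAGTATTatcac
ZEB1, second seed: cagcaaaatcatcagaatCAGTGTTtgtga
ZEB2, first seed: gcccgcactaccatacatCAGTATTtttat
ZEB2, second seed: ttatgcaaaaattttgtaCAGTGTTaaggc
These matches begin at base 369 and base 782 in ZEB1 and at base 392 and base 208 in ZEB2. A seed match is a description of the letters, and mature small RNAs were not measured. The host transcript of miR-200c and miR-141, MIR200CHG, was present in both lines, at a normalized read count of 48.3 ± 6.54 (SD, n = 3) in C4-2B controls and 32.2 ± 15.3 in 22RV1 controls. In C4-2B with 56-mer it was 83.3, 68.7 and 63.3, against 55.7, 43.3 and 45.7 in the controls, where the background of genes with all treated libraries higher was 7.59%, with a limma adjusted p of 0.667. In 22RV1 it was 43.7, 13.7 and 28.3 with 56-mer against 44, 37.6 and 15.0 in controls, so the groups overlapped. On chromosome 1, the entries MIR429, MIR200B and MIR200A averaged 8.73, 3.33 and 0 in C4-2B controls. All of them were at 0 in every 22RV1 library. On chromosome 12, MIR200C was at 0 in both lines, and MIR141 averaged 0 in C4-2B controls and 1.47 in 22RV1 controls. Since MIR200C was at 0 where its host MIR200CHG was present, a 0 in such an entry does not show that its locus is silent.

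FN1 and VIM were the members whose 22RV1 libraries with 56-mer all lay above the 22RV1 controls, so the 250 bases before their annotated starts are shown for comparison, from RefSeq on GRCh38.p14. The folds in 22RV1 were 1.18 and 1.12, each with a limma adjusted p of 0.9996, so neither change was called. The motifs were chosen after these values were seen, and a link between motifs and values was not tested. Capitals mark the letters of 4 motifs searched on both strands: the cyclic AMP response element (TGACGTCA), the CCAAT box (CCAAT or ATTGG), the GC box (GGGCGG or CCGCCC) and the E-box bound by the SNAI and ZEB proteins (CAGGTG or CACCTG).
FN1, minus strand, chr2:215436069-215436318: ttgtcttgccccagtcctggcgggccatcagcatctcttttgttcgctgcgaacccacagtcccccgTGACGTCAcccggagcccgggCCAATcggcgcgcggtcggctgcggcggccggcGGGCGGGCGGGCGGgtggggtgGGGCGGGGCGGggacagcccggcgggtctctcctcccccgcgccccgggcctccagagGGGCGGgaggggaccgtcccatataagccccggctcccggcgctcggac
VIM, plus strand, chr10:17227991-17228240: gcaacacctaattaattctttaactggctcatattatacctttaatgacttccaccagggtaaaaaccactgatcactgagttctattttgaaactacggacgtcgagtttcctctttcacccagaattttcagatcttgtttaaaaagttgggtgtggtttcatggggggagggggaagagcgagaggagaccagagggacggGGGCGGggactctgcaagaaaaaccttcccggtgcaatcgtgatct
The FN1 window held 1 cyclic AMP response element starting 183 bases before the start, 1 CCAAT box at 162 bases and 6 GC boxes. The GC boxes at 129, 125 and 121 bases overlap, as do those at 107 and 102 bases, and the one at 49 bases stands apart. The VIM window held a single GC box, 46 bases before the start. Neither window held the E-box letters. Of 35116 upstream windows of this length, 1.65% held the response element, 32.0% a CCAAT box, 42.6% a GC box and 17.5% an E-box, and 7.63% held 4 or more GC boxes. The windows differed in base composition, with 76.4% G and C in FN1 and 46% in VIM.

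Reads per library, recovered from the normalized values, ranged from 8847368 to 13740386. The luminal prostate markers KLK3, HOXB13, KRT8 and KRT18 were present in both lines. VIM, CDH2, FN1 and ZEB2 are abundant in fibroblasts, endothelium or leukocytes, so markers of those cells were read as well. Summed normalized counts of 9 fibroblast markers were 362 to 445 in C4-2B controls and 280 to 394 with 56-mer, with COL1A1 as the main contributor in both lines. DCN, PDGFRA and COL1A2 were at 0 in all C4-2B libraries, and DCN and PDGFRA averaged 2.57 and 0.587 in 22RV1 controls. The 5 endothelial markers summed to 84.7 to 231 in C4-2B controls and 133 to 164 with 56-mer, and to 4.06 to 8.0 and 0 to 8.20 in 22RV1. The 6 leukocyte markers summed to 73.7 to 222 and 101 to 132 in C4-2B, and to 19.0 to 42.2 and 11.6 to 58.8 in 22RV1. PECAM1 and CD3E were at 0 in every C4-2B library, where VWF and CD68 made up most of these sums. Libraries also differed in how their deviations from the line mean correlated across genes with GC content and transcript length (Spearman rho). In 22RV1 the correlation with GC content was −0.58 in 56-mer replicate 1, 0.38 in 56-mer replicate 3, 0.30 in control replicate 3 and between −0.14 and 0.17 in the others. In C4-2B it was 0.30 and 0.32 in 56-mer replicates 2 and 3 and −0.18 in 56-mer replicate 1, whose correlation with length was −0.33, while the controls lay between −0.21 and −0.0049 for GC content. In C4-2B the GC trend thus set 56-mer replicates 2 and 3 apart from the controls, while 56-mer replicate 1 lay within the control range. The part of this trend in the C4-2B values below was not tested beyond a correction of every library for both trends.

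The largest contrast was between the lines. 22RV1 carried VIM, TWIST1 and CDH2 at levels that C4-2B lacked or nearly lacked, and had more FN1, yet CDH1 was among the most abundant transcripts of both. ZEB2 was at 0 in all 12 libraries. ZEB1, SNAI1 and SNAI2 were low in both lines. The authors normalized the lines separately, so these are comparisons of levels with no test, and each ratio of normalized counts was recomputed from CPM (reads scaled to a common library total) with a change of less than its replicate SD. More genes were above 0 in 22RV1 controls (35319) than in C4-2B controls (25694), so percentiles below are not on the same base in the lines. SNAI1, at 2.28 CPM in C4-2B controls and 2.34 in 22RV1 controls, stood at percentiles 45.4 and 53.2. The share of all genes at 0 in C4-2B but detected in 22RV1, as CDH2 and TWIST1 were, was not computed.

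**Figure D1:**
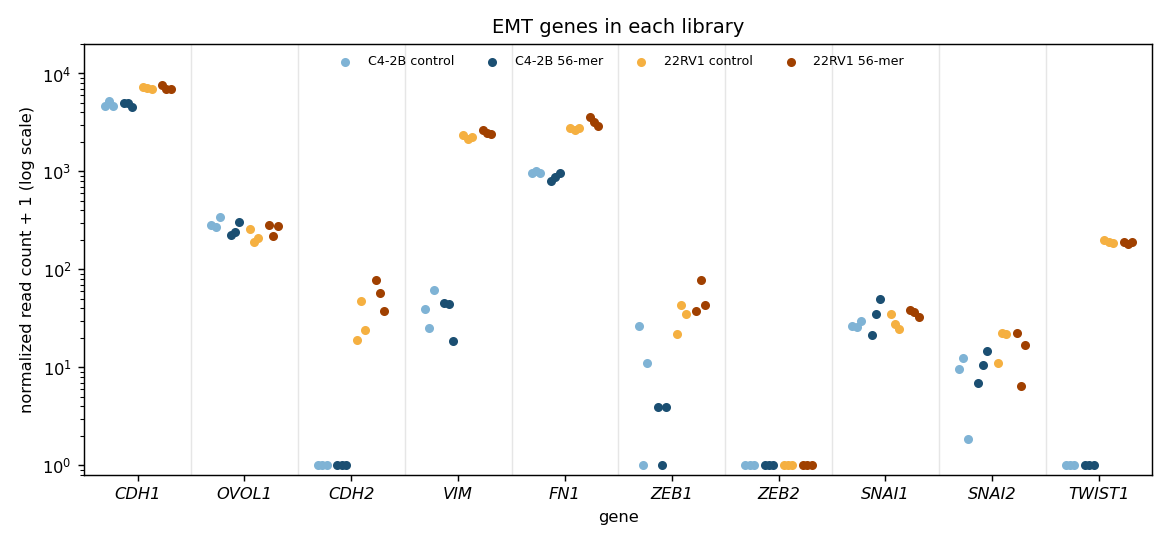
Normalized read count plus 1 on a log scale (vertical axis) for the 10 genes (horizontal axis), with 1 point per library and colours for the 4 groups; a count of 0 sits at the bottom of the axis. VIM, TWIST1 and CDH2 separate the lines, and ZEB2 is at 0 throughout.

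CDH1, the adherens junction cadherin, had normalized read counts of 4663, 5295 and 4603 in C4-2B controls and 4976, 5013 and 4519.7 with 56-mer. In 22RV1 it had 7232, 7141 and 6977 in controls and 7618, 7000 and 6897 with 56-mer. The lines did not overlap, while treated and control libraries overlapped in both. In controls the 22RV1 mean, 7117 ± 129.6 (SD, n = 3), was 1.47 times the C4-2B mean of 4853 ± 383. CDH1 stood at percentile 98.9 of the 25694 genes above 0 in C4-2B controls and at percentile 99.6 of 35319 in 22RV1 controls. An antisense gene over CDH1, AC099314.1, averaged 502 and 1369 in the controls. Whether the counting used strand is not given, so reads of overlapping genes on opposite strands cannot be told apart.

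OVOL1, the zinc finger repressor that maintains epithelial identity, was the only member detected in both lines with a lower control mean in 22RV1. Its values were 283, 270.3 and 344 in C4-2B controls and 223, 242 and 300.1 with 56-mer. In 22RV1 they were 258, 191 and 209 in controls and 280.1, 216 and 274 with 56-mer. The control means, 299 ± 39.4 in C4-2B and 219 ± 34.8 in 22RV1 (SD, n = 3), gave a ratio of 0.733, and the control ranges of the lines did not overlap. An antisense gene over OVOL1, AP001266.1, averaged 155 in C4-2B controls and 86.5 in 22RV1 controls.

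CDH2, the mesenchymal cadherin, was at 0 in all 6 C4-2B libraries. In 22RV1 it had 18, 46.7 and 22.9 in controls and 76.7, 56.0 and 36.2 with 56-mer. It was therefore detected at a low level in every 22RV1 library, with 1 control above the lowest treated library. Against the limit of 3 reads over the C4-2B control group, which allows a level of 0.0861 CPM, CDH2 was at least 28.3-fold higher in 22RV1 controls. A limit of this kind covers counting error in C4-2B only, and not the spread of the 22RV1 libraries.

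VIM, the intermediate filament of mesenchymal cells, showed the largest ratio between the lines among the members detected in both. It had normalized read counts of 38.5, 24.0 and 61.0 in C4-2B controls and 44.1, 42.9 and 17.5 with 56-mer. In 22RV1 it had 2343, 2118 and 2255 in controls and 2646, 2449.9 and 2421 with 56-mer. All 22RV1 libraries lay far above all C4-2B libraries, and within 22RV1 the treated libraries lay above the controls. The control mean was 41.2 ± 18.7 in C4-2B and 2238 ± 114 in 22RV1 (SD, n = 3), a ratio of 54.4, and the closest pair of control libraries differed 33.4-fold in CPM. VIM stood at percentile 49.6 of genes above 0 in C4-2B controls and at 97.5 in 22RV1 controls. The antisense genes over VIM followed the same order: VIM-AS1 averaged 20.2 in C4-2B and 938 in 22RV1 controls, and AL133415.1 averaged 18.3 and 663. With 56-mer in 22RV1 they averaged 849 and 832.

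FN1, which encodes fibronectin, was well expressed in both lines. Its values were 958, 1015 and 955 in C4-2B controls and 800.1, 884 and 970.4 with 56-mer. In 22RV1 they were 2805, 2632 and 2786 in controls and 3609, 3231.5 and 2889.9 with 56-mer. Treated C4-2B libraries overlapped their controls, whereas treated 22RV1 libraries all lay above theirs. The control mean was 976 ± 33.9 in C4-2B and 2741 ± 94.7 in 22RV1 (SD, n = 3), a ratio of 2.81 with no overlap. FN1 stood at percentile 90.0 in C4-2B controls and 98.3 in 22RV1 controls.

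**Figure D2:**
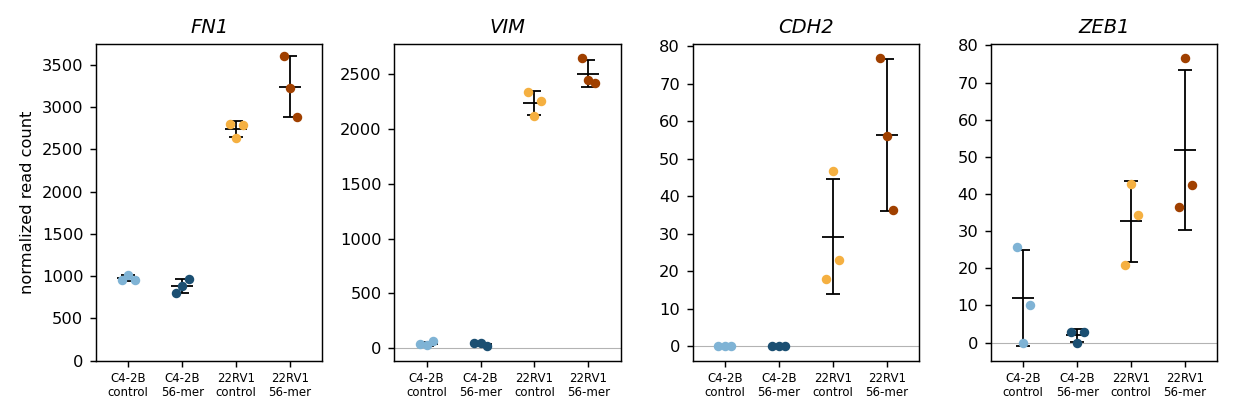
Normalized read counts of FN1, VIM, CDH2 and ZEB1 on linear axes, with 1 point per library for the 4 groups; black bars give the mean and SD of 3 libraries. The 22RV1 libraries with 56-mer lie above the 22RV1 controls in FN1 and VIM and overlap them in CDH2 and ZEB1.

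ZEB1, a repressor of CDH1, was at the edge of detection in C4-2B. There it had 25.7, 0 and 10.2 in controls, from 36 reads in all, and 2.94, 0 and 2.92 with 56-mer, from 6 reads in all. In 22RV1 it had 21.0, 42.6 and 34.3 in controls and 36.6, 76.5 and 42.4 with 56-mer. Treated and control libraries overlapped in both lines, as did the control ranges of the lines, whose means were 12 ± 12.9 in C4-2B and 32.6 ± 10.9 in 22RV1 (SD, n = 3). The antisense gene ZEB1-AS1 averaged 79.1 and 106 in these controls, above ZEB1 itself. ZEB2, the paralogue of ZEB1, had no read in any library, and its antisense gene ZEB2-AS1 had a mean of 0 in each group.

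SNAI1, the zinc finger repressor also called Snail, had 25.7, 25.1 and 28.8 in C4-2B controls and 20.6, 34.3 and 48.7 with 56-mer. In 22RV1 it had 34.0, 26.4 and 23.8 in controls and 37.5, 35.5 and 31.8 with 56-mer. The lines overlapped, with a ratio of control means of 1.06, and so did treatment and control. A processed pseudogene, SNAI1P1, averaged 0 in C4-2B and 4.90 in 22RV1 controls, and reads shared with it could have been assigned to either.

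SNAI2, also called Slug, was lower still. It had 8.57, 11.4 and 0.847 in C4-2B controls and 5.88, 9.54 and 13.6 with 56-mer. In 22RV1 it had 10, 21.3 and 21.1 in controls and 21.4, 5.47 and 15.9 with 56-mer. The ranges overlapped between lines and between treatments, and the lowest C4-2B control value was a single read.

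TWIST1, a basic helix-loop-helix regulator of mesoderm, was at 0 in all 6 C4-2B libraries. In 22RV1 its values were 199.98, 189 and 184 in controls and 190.0, 180.4 and 189 with 56-mer, so the groups overlapped. Its 22RV1 control mean was 191 ± 8.25 (SD, n = 3). In CPM that mean was 185-fold above the limit that 3 reads over the C4-2B control group allow. TWIST1 was the transcription factor of the 5 with the highest level in 22RV1, at percentile 70.9, whereas ZEB1, SNAI1 and SNAI2 lay between percentiles 48.6 and 54.6 there.

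To compare genes with each other, CPM were divided by the median length of each gene's annotated transcripts in kilobases. In C4-2B controls the order was CDH1 (180 ± 13.8, SD, n = 3), FN1 (35.1 ± 1.17), OVOL1 (14.5 ± 2.03), VIM (3.37 ± 1.55), SNAI1 (1.35 ± 0.113), ZEB1 (0.740 ± 0.797) and SNAI2 (0.267 ± 0.210). From VIM downwards, neighbours differed by less than the sum of their SDs, except VIM and SNAI1, which differed by more. In 22RV1 controls the order was CDH1 (256 ± 4.41), VIM (178 ± 9.36), FN1 (95.8 ± 3.54), TWIST1 (27.1 ± 1.17), OVOL1 (10.3 ± 1.65), CDH2 (3.29 ± 1.72), ZEB1 (1.97 ± 0.656), SNAI1 (1.39 ± 0.263) and SNAI2 (0.657 ± 0.243). Here CDH2 and ZEB1, and ZEB1 and SNAI1, differed by less than the sum of their SDs. CDH1 thus exceeded VIM 53.3-fold in C4-2B controls and 1.44-fold in 22RV1 controls. CDH1 exceeded FN1 5.12-fold and 2.68-fold, and in 22RV1 it exceeded CDH2 77.9-fold. With the longest transcript in place of the median length, the ratios of CDH1 to VIM became 64.2 and 1.73. Those of CDH1 to FN1 became 9.33 and 4.87, and that of CDH1 to CDH2 became 216. That change of length also placed SNAI1 above VIM in C4-2B, at 1.35 against 1.33, and SNAI1 above CDH2 in 22RV1, at 1.39 against 0.562, and it placed ZEB1 below SNAI2 in both.

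No member changed with the 56-mer in either line at an adjusted p of 0.05 in limma, a linear model fitted over all genes on log2 of the normalized count plus 1. In C4-2B, 5 of the 10 members passed the filter on low values (3 or more of the 6 libraries at a normalized count of 10 or higher), 0 were called, and the background was 0.066% of 16657 genes tested. In 22RV1, 9 passed, 0 were called, and the background was 0.00975% of 20517 genes. At an unadjusted p under 0.05 there were 0 of 5 in C4-2B, where the background was 8.92%, and 3 of 9 in 22RV1 (FN1, CDH2 and VIM), where it was 3.91%. With the limma variance estimated with neither trend nor robustness, it was 0 of 9 in 22RV1, against 904 of 20517 genes. edgeR and DESeq2 on the recovered reads also called 0 members in both lines. In C4-2B, however, DESeq2 gave no adjusted p for VIM, SNAI1, FN1 and OVOL1, so it could not call them. In C4-2B no member tested had groups without overlap, against 7.59% of genes with all treated libraries higher and 7.08% with all lower. In 22RV1, 2 of 9 members (FN1 and VIM) had all treated libraries higher, against 4.45% of genes, and none had all lower, against 4.58%. The members' median log2 change was −0.15 in C4-2B, against −0.011 over all genes tested, and 0.23 in 22RV1, against −0.0026.

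FN1 had the smallest p of the members. Its log2 change in 22RV1 was 0.24 ± 0.073 (SE), with a 95% interval of 0.090 to 0.38, a fold of 1.18, an unadjusted p of 0.00223 and an adjusted p of 0.9996 in limma. It ranked 32nd by p among all genes tested, with higher values in 3 of 3 treated libraries. The highest treated library, replicate 1, was the one with the strongest correlation with GC content, and FN1 transcripts have 42.2% G and C. Without that library the change was 0.16 with an unadjusted p of 0.0135, and after the GC and length correction it was 0.21 with an unadjusted p of 0.000271 and an adjusted p of 0.265. In C4-2B the FN1 change was −0.15 (95% interval −0.37 to 0.081), with an adjusted p of 0.733. It was −0.075 without 56-mer replicate 1 and −0.036 after the correction.

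VIM in 22RV1 had a log2 change of 0.16 ± 0.073, with a 95% interval of 0.015 to 0.31 and an unadjusted p of 0.0318, and without 56-mer replicate 1 it had 0.12 with an unadjusted p of 0.0655. In C4-2B it had −0.25 with an interval of −1.25 to 0.76, from 129 control reads and 108 treated reads in all, and it was −0.47 without 56-mer replicate 1. CDH2 had the largest log2 change of the members in 22RV1, 0.98 ± 0.38 (0.21 to 1.74, unadjusted p of 0.0136), but its treated and control libraries overlapped. That change fell to 0.70 without control replicate 1 and to 0.73 without 56-mer replicate 1, with unadjusted p values of 0.0879 and 0.0988. ZEB1 in 22RV1 had a change of 0.63 with an interval of −0.11 to 1.37, and when 1 library was left out its change ran from 0.32 (without 56-mer replicate 2, unadjusted p of 0.452) to 0.85 (without control replicate 2, unadjusted p of 0.0447). Without 56-mer replicate 1 it was 0.84 with an unadjusted p of 0.0364. All adjusted p values in 22RV1 were 0.9996 in limma. Fibroblast markers had estimates in the same direction as FN1, VIM, CDH2 and ZEB1 in 22RV1. All 5 of the 9 that were tested were higher with 56-mer, with a median log2 change of 0.45, as were 49.4% of all genes tested. Of these 5 markers, 0 were called and 0 had an unadjusted p under 0.05 in limma. The sum of the 9 markers was 351 to 411 in controls and 390 to 494 with 56-mer, mostly COL1A1, with DCN, PDGFRA and FAP near 0. Their part in the members' values was not tested.

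For the remaining members every interval included 0, with differing precision. For CDH1 the intervals were narrow, −0.16 to 0.15 in C4-2B and −0.10 to 0.12 in 22RV1, so a change of more than 1.11-fold lay outside both intervals in the upward direction. OVOL1 had −0.23 (−0.60 to 0.14) in C4-2B and 0.23 (−0.096 to 0.55) in 22RV1. When 1 library was left out, OVOL1 ran from −0.36 to −0.13 and from 0.14 to 0.35 in the lines. TWIST1 in 22RV1 had −0.033 (−0.37 to 0.31). SNAI1 had 0.29 (−0.73 to 1.31) in C4-2B and 0.32 (−0.46 to 1.10) in 22RV1, and SNAI2 had −0.38 (−1.61 to 0.85) in 22RV1. SNAI1 in C4-2B ran from 0.0073 to 0.61 when 1 library was left out, the highest without 56-mer replicate 1. A log2 change of 1 lay within the interval of SNAI1 in both lines, and a log2 change of −1 within that of SNAI2, so the data do not exclude changes of that size. CDH2, ZEB1, ZEB2, SNAI2 and TWIST1 in C4-2B and ZEB2 in 22RV1 did not pass the filter and were not tested.

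**Figure D3:**
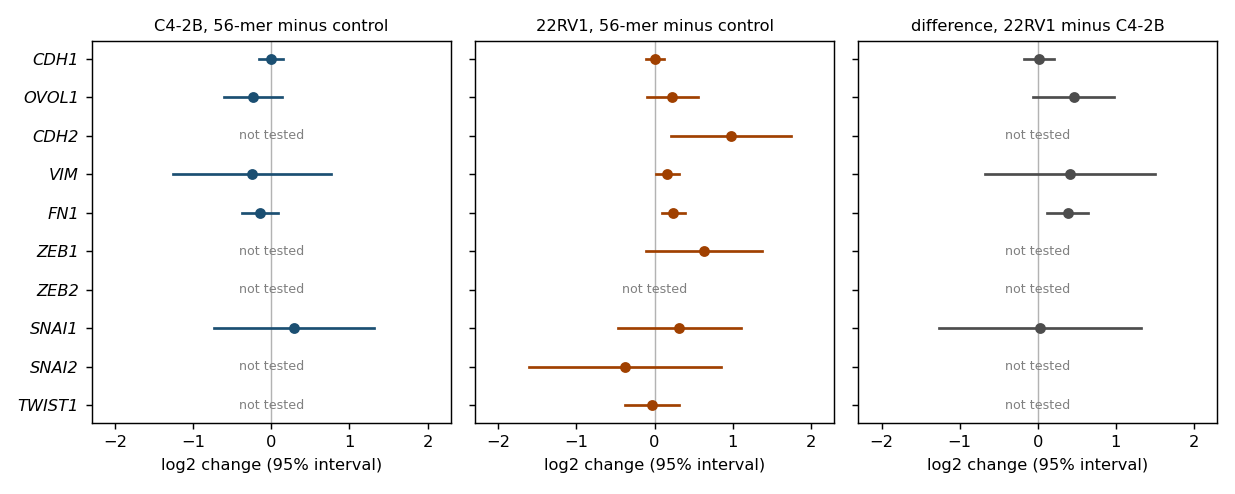
Log2 change with 56-mer in C4-2B and in 22RV1, and the difference between these changes (horizontal axes), for each gene (vertical axis), as the limma estimate with its 95% interval. In 22RV1 the intervals of FN1, VIM and CDH2 lie above 0, and in the difference that of FN1 does.

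The change with 56-mer was also compared directly between the lines, in 1 limma fit of all 12 libraries. Of the 5 members that passed the filter in both lines (CDH1, OVOL1, VIM, FN1 and SNAI1), 0 differed at an adjusted p of 0.05, and the background was 0% of 15527 genes, of which 1227 had an unadjusted p under 0.05. edgeR called 1 gene and DESeq2 called 4, none of them a member, but DESeq2 gave no adjusted p for SNAI1 and OVOL1. All 5 estimates were above 0 as 22RV1 minus C4-2B, as were 51.8% of all genes tested, and those of SNAI1 and CDH1 were near 0 and turned negative in 8 of 22 and 6 of 23 alternatives. FN1 differed by 0.38 ± 0.13 (0.12 to 0.65), with an unadjusted p of 0.00684 and an adjusted p of 0.542, and by 0.24 after the GC and length correction. OVOL1 differed by 0.46 (−0.057 to 0.98), VIM by 0.41 (−0.68 to 1.5), SNAI1 by 0.030 and CDH1 by 0.014.

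The authors' deposited table of the 22RV1 comparison gave a log2 fold change of 0.24 for FN1 with a p-value of 0.00186, 0.16 for VIM with a p-value of 0.0199 and 0.95 for CDH2 with a p-value of 0.0438. For ZEB1 in C4-2B the authors' deposited table gave −2.62 ± 1.56 with a p-value of 0.0938, on a mean of 6.95. The 9 members listed for 22RV1 and the 7 listed for C4-2B all had an adjusted value of 0.999995 or 1 in the authors' deposited table.

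Other genes of the programme were read in 5 lists, and none of their genes changed at an adjusted p of 0.05 in limma in either line. Of 12 other transcription factors of the transition, 6 were tested in C4-2B (estimates 2 higher and 4 lower with 56-mer) and 9 in 22RV1 (5 higher, 4 lower). TCF3, an E protein that partners TWIST1, led in both lines, with control means of 1222 ± 90.2 in C4-2B and 1350 ± 123 in 22RV1. The homeobox factor GSC had 69.5 ± 16.2 in C4-2B controls and 7.08 ± 6.10 in 22RV1 controls, and SOX9 (302 ± 25.1) and TCF4 (237 ± 40.8) followed TCF3 in 22RV1 controls. TWIST2 was at 0 in both lines, and PRRX1 and FOXC1, named after their values were seen, were at 0 in C4-2B and averaged 42.7 and 77.2 in 22RV1 controls.

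Of 15 keepers of the epithelial state, 12 were tested in C4-2B (5 higher, 7 lower) and 14 in 22RV1 (9 higher, 5 lower). GRHL2, which activates CDH1 and other junction genes, had control means of 894 ± 30.6 in C4-2B and 2200.0 ± 103 in 22RV1. In C4-2B controls EHF (989.9 ± 56.1) was higher and RBM47 (766 ± 68.2) lower, and over all 6 libraries the means of GRHL2 and EHF were 926 and 923. In 22RV1 GRHL2 was followed by ESRP1, an epithelial splicing regulator (1573 ± 91.5), and ELF3 (929 ± 88.5). Of 27 epithelial junction and keratin genes, 26 were tested in C4-2B (9 higher, 17 lower) and 27 in 22RV1 (15 higher, 12 lower). The luminal keratins KRT8 and KRT18 had 7208 ± 131 and 6142 ± 349 in C4-2B controls and 9349 ± 165 and 4211 ± 159 in 22RV1 controls. CLDN4, a tight junction claudin, had 6378 ± 224 in C4-2B controls, and CTNNB1, the catenin that binds E-cadherin, had 4727 ± 64.4 in 22RV1 controls.

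Of 38 symbols of mesenchymal cytoskeleton, matrix and protease genes, CYR61 and CTGF are older names of CCN1 and CCN2, which are listed too, and had no row of their own. Of the rest, 20 were tested in C4-2B (7 higher, 13 lower) and 31 in 22RV1 (14 higher, 17 lower). In C4-2B controls the most abundant were CALD1 (4074 ± 58.3), an actin-binding protein, COL6A1 (3542 ± 20.8), a collagen chain, and TAGLN2 (2211 ± 102). In 22RV1 controls they were TAGLN2 (4756 ± 375), ITGB1 (2942 ± 142), the integrin chain of the fibronectin receptor, and THBS1 (2669.8 ± 183), a matrix glycoprotein. CD44, the hyaluronan receptor, was named after its values were seen: it averaged 1.13 ± 1.96 in C4-2B controls and 999 ± 51.2 in 22RV1 controls. Other genes of the list ran the other way: 22RV1 controls had 2206 ± 148 for CALD1 and 1157 ± 25.5 for COL6A1, and COL6A2, named after its values were seen, averaged 1959.5 in C4-2B and 185 in 22RV1 controls. Of 31 TGF-beta and BMP signalling genes, 27 were tested in C4-2B (9 higher, 18 lower) and 29 in 22RV1 (15 higher, 14 lower). SKI, a repressor of SMAD signalling, had 1619 ± 165 in C4-2B controls and 1668 ± 60.9 in 22RV1 controls. SMAD2 (706 ± 57.9) and the receptor ACVR1B (653 ± 23.3) followed in C4-2B, and the BMP targets ID3 (3181 ± 174) and ID1 (2607 ± 42.7) were highest in 22RV1. The ligand TGFB2 and the receptor TGFBR2, also named after their values were seen, averaged 0 and 1.41 in C4-2B controls and 363 and 76.7 in 22RV1 controls, whereas the receptor TGFBR1 averaged 171 and 82.2.

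**Figure D4:**
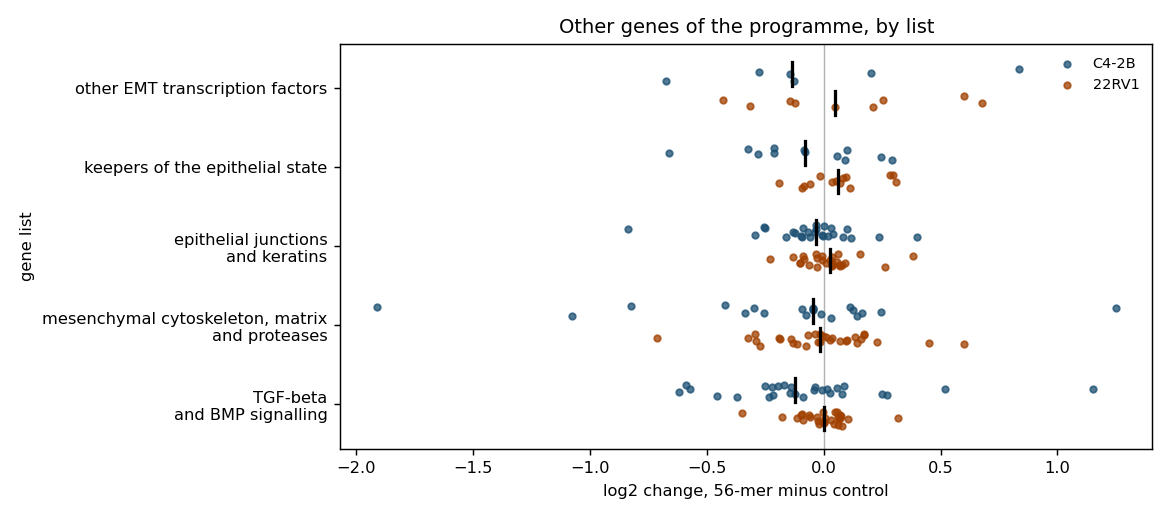
Log2 change with 56-mer (horizontal axis) of each tested gene in 5 lists (vertical axis) in C4-2B and 22RV1, with 1 point per gene and a black line at the median. The medians lie between −0.13 and 0.063, and no gene passed an adjusted p of 0.05 in limma.

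The list medians of the log2 change in C4-2B were −0.13 for other transcription factors, −0.082 for keepers of the epithelial state, −0.034 for junctions and keratins, −0.046 for mesenchymal genes and −0.12 for TGF-beta and BMP genes. In 22RV1 they were 0.048, 0.063, 0.026, −0.015 and 0.0016. The medians over all genes tested were −0.011 in C4-2B and −0.0026 in 22RV1, and no list was tested as a set.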

How the data were processed

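RNA was extracted with a column kit, per the labels' protocols; aligner, read counter, strand setting, annotation and build: not given in the sources used here. The authors deposited 1 normalized table per line, whose signal values are read counts divided by a size factor per library, since every value was a whole number of reads within 0.01 after rescaling. Per the file headers, the deposited comparison tables hold a mean signal, a log2 fold change, a score (Wald statistic) and p-values; DESeq is named without a version in the submitters' processing notes. Rescaled reads gave CPM and the count tests.

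Within each line, 56-mer was compared with control by limma 3.58.1 (R 4.3.3; trend, robust, two-sided) on log2(normalized count + 1), for genes with at least 10 in at least 3 of 6 libraries, with Benjamini-Hochberg adjustment over all genes tested and a threshold of 0.05. The difference between lines came from 1 fit of 12 libraries. edgeR 4.0.16 and DESeq2 1.42.0 were alternatives. Fits were tested on simulated data. Lengths, GC content and untranslated regions came from GENCODE 29. No separate cultures are identified beyond the wording of the series text, so p-values measure the spread between these libraries.

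All 10 members were named, together with list genes past the threshold and, per list and line, the 3 with the highest mean; some genes that this rule names are left out here. The members and lists were chosen with earlier results of these data known, and the small RNAs and motifs after their values were seen.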

Additional observations from a re-analysis of the deposited data

How the results depend on the processing

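The number of members called was 0 in each line and in the difference under every alternative run: voom, edgeR, DESeq2, variance estimated with neither trend nor robustness, a pseudocount of 10 or 0.1, a minimum mean of 50 or no filter, equal totals, quantile normalization, leaving out each library, and a GC and length correction chosen after seeing the data. With DESeq2 some members had no adjusted p and could not be called. They were VIM, SNAI1, FN1 and OVOL1 in C4-2B, and SNAI1 and OVOL1 in the difference. Over these settings the FN1 change in 22RV1 ran from 0.16 to 0.32, with an unadjusted p under 0.05 in 16 of 17 (0.0837 without trend or robust variance). VIM in 22RV1 ran from 0.12 to 0.20, with an unadjusted p under 0.05 in 12 of 17. CDH2 in 22RV1 ran from 0.70 to 1.36, with an unadjusted p under 0.05 in 13 of 16. None of these estimates changed sign. The signs that did change belong to estimates near 0 or to genes with few reads, and the cause was not tested. CDH1 in C4-2B was 0.0020 with voom and 0.041 with the GC and length correction, and from −0.041 to 0.060 when 1 library was left out. CDH1 in 22RV1 was −0.0067 with equal totals, and from −0.034 to 0.037 without 1 library. The CDH1 difference was −0.0095 with DESeq2 and −0.034 with the GC and length correction, and from −0.051 to 0.050 without 1 library. The SNAI1 difference was −0.0094 with quantile normalization, −0.060 with edgeR and −0.079 with DESeq2, and from −0.29 to 0.31 without 1 library. Leaving out 1 library gave −0.57 to 0.18 for VIM in C4-2B, −0.013 to 0.74 for the VIM difference, −0.059 to 0.0010 for TWIST1 in 22RV1 and −0.75 to 0.15 for SNAI2 in 22RV1. Genes called in C4-2B numbered 11, but 81 without 56-mer replicate 1, 42 with DESeq2 and 0 with edgeR. No paired analysis was possible because replicate numbers follow record order only and nothing in the labels pairs libraries. CDH2, ZEB1, ZEB2, SNAI1, SNAI2 and TWIST1 had few reads or none in C4-2B, so the data say little about their changes there.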
